A study of Mus musculus with 6 samples.

Results

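The genes of MHC class I and class II antigen presentation were followed in livers of mice with and without Chrna2, a nicotinic acetylcholine receptor subunit, in hepatocytes. Rows of the deposited gene table were taken by symbol: all symbols that start with H2- and a capital letter, without those ending in -ps, and B2m, Cd74, Ciita, Nlrc5, Tap1, Tap2, Tapbp and Erap1. This gave 50 of 55491 rows. Of these, 2 were classical class I heavy chains, 6 the light chain, the peptide loading genes and the regulator of class I, 26 nonclassical class I genes and 12 class II genes. The remaining 4 carry an H2 symbol but belong to none of these groups. On GRCm38, 45 of the 50 lie on chromosome 17, between 33915899 and 37483552.

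RNA of whole liver was compared between 3 Chrna2fl/fl mice (control livers a, b and c) and 3 Chrna2fl/fl;AlbCre littermates (mutant livers a, b and c), in which Cre under the albumin promoter deletes the floxed gene in hepatocytes and leaves it in other liver cells. All 6 mice carried the floxed alleles, started at 7 to 10 weeks of age, ate an HFD with 60% of its calories from fat for 4 weeks and received CCl4, which injures hepatocytes, 2 times per week in the later weeks (0.5 μl/g). Chrna2 itself measured 1.24, 1.20 and 2.64 FPKM in controls and 0.36, 0.03 and 0.32 FPKM in mutants (log2 fold change -2.52, SE 0.64, adjusted p = 0.255 from limma). FPKM divides fragments by transcript length and library size, so levels can be compared between genes. The libraries held an estimated 17.2 to 18.0 M fragments in control livers and 8.88 to 9.0 M in mutant livers, so depth, or a batch that goes with it, and genotype cannot be told apart. The hepatocyte markers Alb, Apoa1, Ttr, Serpina1c, Cps1 and Hnf4a were high in every liver, with a summed level of 46449 to 69512 FPKM in control and 45590 to 57046 FPKM in mutant livers. Alb alone was at 25514 to 46354 FPKM in control and 24361 to 33815 FPKM in mutant livers. Of the 6 markers, 1 had a log2 fold change above 0, against 70.3% of all tested genes, and their median was -0.20.

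Class I molecules sit on nearly all cells and show peptides cut in the cytosol to CD8 T cells. The heavy chain pairs with the light chain beta-2 microglobulin, and the peptide is carried into the endoplasmic reticulum by the TAP transporter and loaded there with the help of tapasin. Class II molecules are made mainly by macrophages, dendritic cells and B cells. Their alpha and beta chains are held by the invariant chain Cd74 until H2-DM exchanges its remnant for peptides from endosomes, and they present these to CD4 T cells. In the liver, Kupffer cells, the resident macrophages, carry class II, and hepatocytes carry class I. Because whole tissue was sequenced, fewer cells of a type and less RNA per cell cannot be told apart in any of the levels below.

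The promoters of both classes are known for a shared layout, an X box bound by RFX and CREB and a Y box bound by NF-Y, on which the regulators Ciita and Nlrc5 assemble. Promoter windows were found in the RefSeq table (GRCm38.p6) for 35 of the 50 genes. The 150 bases before the start are shown for 3 class II genes, for the most abundant classical and nonclassical heavy chains and for the light chain. Capitals mark matches, on either strand, to the Y box CCAAT, the X box core AACNGATG, the CREB site TGACGTCA, the interferon-gamma activated site TTCNNNGAA and the interferon response core GAAANNGAAA.
H2-Aa: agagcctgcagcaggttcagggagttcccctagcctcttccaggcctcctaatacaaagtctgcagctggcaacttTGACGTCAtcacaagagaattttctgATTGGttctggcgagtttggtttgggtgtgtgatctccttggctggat
H2-Eb1: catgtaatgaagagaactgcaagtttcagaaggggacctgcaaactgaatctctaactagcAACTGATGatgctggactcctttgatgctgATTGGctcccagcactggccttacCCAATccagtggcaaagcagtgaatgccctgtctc
H2-DMb1: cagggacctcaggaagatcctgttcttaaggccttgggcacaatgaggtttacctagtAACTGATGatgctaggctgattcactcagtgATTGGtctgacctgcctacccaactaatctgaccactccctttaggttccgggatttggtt
H2-K1: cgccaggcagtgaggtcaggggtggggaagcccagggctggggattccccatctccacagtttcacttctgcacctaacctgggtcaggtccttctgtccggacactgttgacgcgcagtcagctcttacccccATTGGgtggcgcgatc
H2-Q10: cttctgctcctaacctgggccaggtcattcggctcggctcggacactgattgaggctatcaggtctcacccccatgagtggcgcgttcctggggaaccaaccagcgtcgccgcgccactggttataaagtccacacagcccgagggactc
B2m: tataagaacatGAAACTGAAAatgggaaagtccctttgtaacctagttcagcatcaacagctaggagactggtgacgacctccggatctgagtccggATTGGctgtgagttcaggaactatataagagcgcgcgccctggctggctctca

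The pieces lie at chr17:34287824-34287973 (minus strand) for H2-Aa, chr17:34305717-34305866 (plus strand) for H2-Eb1, chr17:34153041-34153190 (plus strand) for H2-DMb1, chr17:34000348-34000497 (minus strand) for H2-K1, chr17:35469939-35470088 (plus strand) for H2-Q10 and chr2:122147537-122147686 (plus strand) for B2m. The Y box motif was found in the windows, from 250 bases before to 50 after the start, of 8 of 8 class II genes and 31 of 35 members, against 37.4% of 32851 windows of this length. The X box core was in 4 of 8 class II windows, those of H2-Eb1, H2-DMb1, H2-Eb2 and H2-DMb2, against 2.32% of all windows. The class II pieces printed here each hold it or the CREB site beside a Y box, which not every class II window did. The window of H2-DMa, not printed, held only a Y box, 198 bases before the start. In H2-Eb1 the X box core starts 89 bases and the Y boxes 59 and 35 bases before the start, and in H2-DMb1 92 and 61 bases. In H2-Aa the CREB site and the Y box start 74 and 48 bases before it. These starts are those of RefSeq, and for H2-DMb1 the GENCODE M21 start, 34153072, lies inside the printed piece. H2-Q10 held a match to none of the 5 motifs, while H2-K1 held a Y box. The interferon response core was found in B2m, Erap1, H2-T23 and H2-T22 (3.44% of all windows), and the interferon-gamma activated site in 3 members, of which only H2-M3 was tested (8.3% of all windows). The CREB site was in 1.79% of all windows. Such matches are letters in a window and say nothing of whether a factor is bound.

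For the comparison, FPKM plus 0.1 was taken to log2, and the 13943 genes whose mean over the 6 livers reached 0.5 FPKM were tested with limma and adjusted by Benjamini-Hochberg. Fold changes are on this scale, which understates changes of low genes. Of the 50 genes, 30 passed this filter, 13 were listed at 0 in all 6 livers and 7 were low. No gene passed an adjusted p under 0.05, among the members or in the whole table (0% of 13943 genes, smallest adjusted p of a member 0.277). At an unadjusted p under 0.05 from the same limma fit, 2 of the 30 tested members, H2-M3 and H2-DMa, were higher in mutant livers, and 0 were lower. The same share over all tested genes was 13.2% higher and 3.02% lower. Levels of all 3 mutant livers lay above all 3 control livers for 1 member, H2-M3, and below them for 0 members, against 18.7% and 4.34% of all tested genes. These counts of members did not exceed those background shares. Their median log2 fold change was 0.07, and that of all tested genes 0.19.

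**Figure D1:**
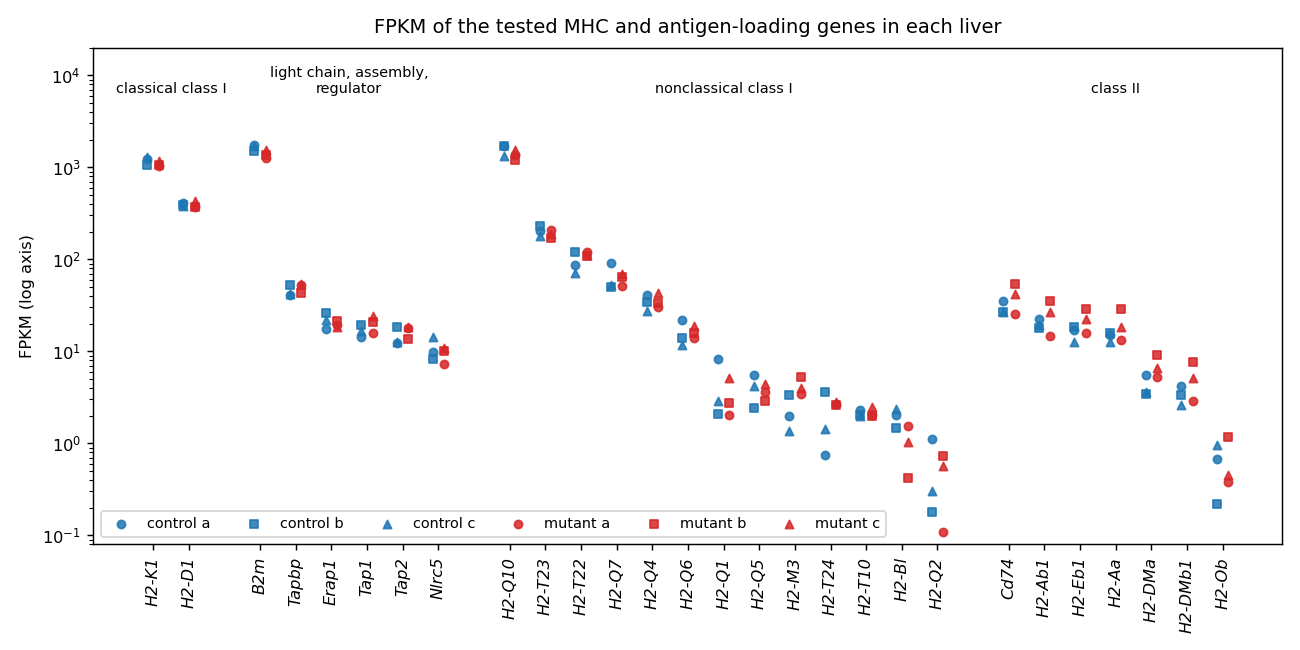
FPKM on a log axis of 28 tested genes of the 2 classes in each of the 6 livers, control livers in blue and mutant livers in red, with 1 point per liver. B2m, H2-K1, H2-Q10 and H2-D1 stand far above the class II genes, and the genotypes overlap for every gene shown except H2-M3.

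Class I RNA was abundant, and its levels in mutant and control livers overlapped. The 50 members together held 0.639% to 0.722% of all FPKM in control livers and 0.581% to 0.669% in mutant livers. B2m, H2-K1, H2-Q10 and H2-D1 alone held 83.4% to 87.9% of this, and B2m ranked 64, H2-Q10 65 and H2-K1 84 among all genes by mean level.

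H2-K1 (chromosome 17, 33996017 to 34000347), a classical heavy chain, was at 1239, 1061 and 1295 FPKM in controls a, b and c, and its level in mutants a, b and c was 1032, 1049.8 and 1159 FPKM. Its log2 fold change was -0.15 (95% interval -0.47 to 0.17, adjusted p = 0.586 from limma), and control liver b lay among the mutants. With median-ratio scaling of the libraries it was -0.33. H2-D1 (35262730 to 35267499), the other classical heavy chain, was at 405, 385 and 379 FPKM against 370.4, 375 and 430.4 FPKM. The difference was 0.01 with a 95% interval of -0.28 to 0.29, the narrowest interval of the members, and it was -0.18 with median-ratio scaling of the libraries. The ratio of H2-K1 to H2-D1 was 2.76 to 3.41 in control and 2.69 to 2.80 in mutant livers.

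B2m, the light chain shared by all class I molecules, was at 1758, 1494 and 1704 FPKM in control and at 1260.4, 1352 and 1525 FPKM in mutant livers. The 2 highest control livers lay above all mutants, but control b lay below mutant c, and the log2 fold change of -0.26 (SE 0.14, adjusted p = 0.380 from limma) did not pass. It was -0.45 with median-ratio scaling, and did not pass the adjusted threshold there either. Relative to the sum of all class I heavy chains, B2m stood at 0.415 to 0.506 in control livers and at 0.393 to 0.446 in mutant livers.

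The genes that load class I overlapped between the genotypes as well. Tap1 and Tap2, the 2 subunits of the peptide transporter, had log2 fold changes of 0.27 (SE 0.20) and 0.20 (SE 0.21), from 14.2 to 19.4 FPKM in control against 15.9 to 24.1 FPKM in mutant livers for Tap1 and from 12.4 to 18.6 against 13.5 to 18.5 FPKM for Tap2. Tapbp, the loading chaperone tapasin, was at 41.2 to 52.6 FPKM in control and 43.3 to 54.3 FPKM in mutant livers. Its log2 fold change of 0.15 (SE 0.16) turned to -0.03 with that scaling. Erap1, which trims peptides in the endoplasmic reticulum, was at 17.7 to 25.9 against 18.3 to 21.5 FPKM (-0.13, SE 0.17, and 0.04 with array weights). Nlrc5, the transactivator of class I promoters, was at 9.84, 8.24 and 14.3 FPKM against 7.35, 10.04 and 10.9 FPKM (-0.18, SE 0.25). The adjusted p of these 5 genes from limma was 0.504 to 0.721.

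**Figure D2:**
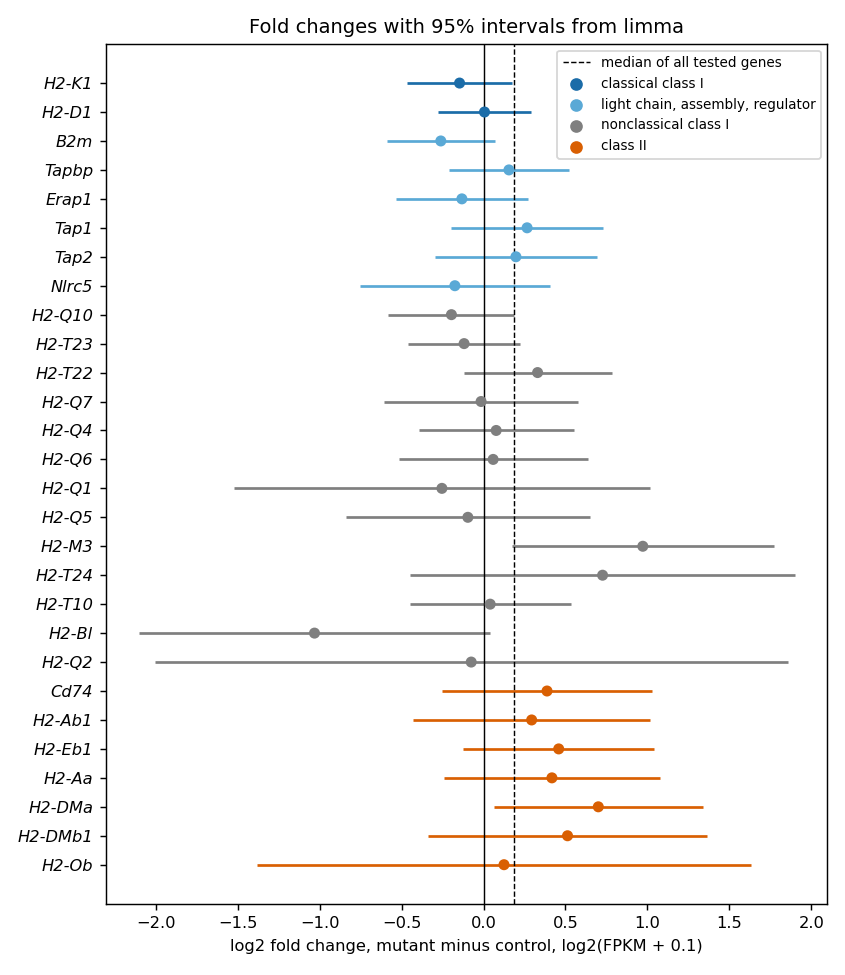
Log2 fold change of each of 28 tested genes, mutant minus control on the log2(FPKM + 0.1) scale, with its 95% interval from limma as a line and the median of all tested genes, 0.19, as a dashed line. The class II genes all sit to the right of 0, the class I genes lie on both sides, and only the intervals of H2-M3 and H2-DMa leave out 0.

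Of the 26 nonclassical class I genes, 13 were tested, 6 of them with a log2 fold change above 0, and their median was -0.02. H2-Bl, H2-Q5 and H2-T10 are annotated as polymorphic pseudogenes and H2-Q3 as an unprocessed pseudogene. H2-Q10, which encodes a class I heavy chain that the liver secretes, was at 1685, 1695 and 1331 FPKM in control livers and at 1362, 1199 and 1547 FPKM in mutant livers (log2 fold change -0.20, SE 0.16, adjusted p = 0.544 from limma, and -0.38 with median-ratio scaling). It was thus at least as abundant as the classical H2-K1, at 1.03 to 1.60 times its level in control and 1.14 to 1.34 times in mutant livers. H2-T23, the Qa-1 chain that is read by receptors of NK cells, was at 205, 230.0 and 181 FPKM in control and 210.1, 169 and 187 FPKM in mutant livers. H2-T22, a ligand of some gamma delta T cells, was at 86.7, 119 and 71.8 FPKM against 120.2, 110.0 and 112 FPKM, with 2 control livers under all mutants and a log2 fold change of 0.33 (SE 0.19, adjusted p = 0.409 from limma).

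H2-M3, which binds peptides that begin with N-formyl methionine, as those of bacteria and mitochondria do, was the only member whose genotypes did not overlap. It was at 1.99, 3.35 and 1.35 FPKM in control livers and at 3.46, 5.28 and 4.02 FPKM in mutant livers, so that control b came close to mutant a. The log2 fold change was 0.97 (SE 0.34, unadjusted p = 0.0238, adjusted p = 0.277 from limma), and an exact two-sided permutation test gave 0.1, the smallest p that 3 livers against 3 allow. Without 1 liver in turn, it was 0.68 to 1.3, the unadjusted p no longer passed in 4 of the 6 cases, and the adjusted p came no lower than 0.0806.

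H2-Bl, a polymorphic pseudogene by annotation, was at 2.03, 1.48 and 2.35 FPKM in control and 1.54, 0.42 and 1.03 FPKM in mutant livers. This was the largest difference downward among the members (log2 fold change -1.03, SE 0.46, adjusted p = 0.321 from limma). H2-T24 was at 0.75, 3.64 and 1.44 FPKM against 2.7, 2.64 and 2.79 FPKM (0.73, SE 0.50), a spread that lay in the control livers. H2-T10 was at 2.0 to 2.28 against 1.99 to 2.5 FPKM, and H2-Q2 at 0.18 to 1.12 against 0.11 to 0.73 FPKM. At these levels few fragments were counted: on a transcript of 1500 nt, 1 fragment was worth 0.0455 to 0.048 FPKM in control libraries and 0.0898 to 0.0928 FPKM in mutant libraries.

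Control liver a stood highest for 5 of the 13 tested nonclassical genes, all of them Q genes. H2-Q7, of the Qa-2 region, was at 91.9 FPKM there and at 49.8 and 52.7 FPKM in controls b and c, against 51.8 to 69.5 FPKM in mutants. H2-Q6 was at 21.9, 13.8 and 11.9 FPKM against 13.9 to 18.6 FPKM, H2-Q1 at 8.19, 2.10 and 2.89 FPKM against 2.02 to 5.18 FPKM, and H2-Q5 at 5.47, 2.44 and 4.21 FPKM against 2.89 to 4.39 FPKM. H2-Q4, too, was higher in control a than in controls b and c, with 40.7, 34.1 and 27.1 FPKM in control and 30.6 to 43.4 FPKM in mutant livers. Of the stretches of read length in these transcripts, 5.94% in H2-Q6, 5.79% in H2-Q7, 3.65% in H2-Q5, 3.37% in H2-Q10 and 2.63% in H2-Q1 also occur in another gene, mostly another Q gene, so their levels are less certain than those of H2-K1 with 0%. Below the filter, H2-M2 was at 0.16 to 0.56 FPKM in control and 0.11 to 0.52 FPKM in mutant livers and H2-M5 did not exceed 0.11 FPKM. The M1, M9, M10 and M11 genes and H2-Q3 were listed at 0 in every liver.

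Class II RNA was much less abundant, and 2 of the 3 mutant livers stood above the controls while the third did not. Log2 fold changes were above 0 for 7 of 7 tested class II genes, with a median of 0.42 against 0.19 for all tested genes, of which 70.3% were above 0, and H2-DMa alone had an unadjusted p under 0.05. The direction also held after median-ratio scaling and quantile normalization (median 0.23 and 0.26), except for H2-Ob, which stood at -0.04 with the former. Mutant b was the highest of the 6 livers for 7 of 7 genes, and the mutants stood in the order b, c, a for 7 of 7. Over all tested genes, 20.2% were highest in mutant b and 12.0% had that order. The order was read from these same class II values, so these shares describe it and do not test it.

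H2-Aa and H2-Ab1, the alpha and beta chain of the A molecule, stood in the same order among the mutant livers. H2-Aa was at 15.1, 15.9 and 12.5 FPKM in control livers and at 13.3, 29.2 and 18.5 FPKM in mutant livers. H2-Ab1 was at 22.3, 17.8 and 19.1 FPKM against 14.7, 35.3 and 27.0 FPKM. Mutant a was thus the lowest liver for H2-Ab1, while mutants b and c were above every control, and the log2 fold changes of 0.42 (SE 0.28) and 0.29 (SE 0.31) lay within this spread (adjusted p = 0.462 and 0.626 from limma).

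H2-Eb1, the beta chain of the E molecule, was at 17.2, 18.4 and 12.7 FPKM in control and 16.0, 29.0 and 22.4 FPKM in mutant livers (log2 fold change 0.46, SE 0.25, adjusted p = 0.381 from limma). Its partner H2-Ea was listed at 0 in all 6 livers. Several mouse strains, C57BL/6 among them, carry an H2-Ea allele that is not expressed, and H2-Ea is annotated as a polymorphic pseudogene. The strain of the floxed mice was not given in the sources used here.

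Cd74, the invariant chain, was at 35.2, 27.0 and 26.6 FPKM in control livers and at 25.6, 53.4 and 41.6 FPKM in mutant livers (log2 fold change 0.39, SE 0.27, adjusted p = 0.481 from limma). It was the most abundant class II gene, at 1.39 to 1.58 times H2-Ab1 in control and 1.51 to 1.74 times in mutant livers, a ratio with a narrower range than either gene.

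H2-DMa, a chain of the peptide exchanger H2-DM, had the largest class II difference. It was at 5.58, 3.45 and 3.61 FPKM in control and at 5.20, 9.02 and 6.54 FPKM in mutant livers (log2 fold change 0.70, SE 0.27, unadjusted p = 0.0352, adjusted p = 0.287 from limma), and mutant a lay below control a. The unadjusted p no longer passed with median-ratio scaling (0.114), quantile normalization (0.130) or array weights (0.104), nor without 1 liver in 4 of 6 cases. Its partner H2-DMb1 was at 4.25, 3.35 and 2.61 FPKM against 2.85, 7.58 and 5.11 FPKM (0.51, SE 0.36), with 4.65% of its stretches of read length shared with H2-DMb2. H2-Ob, of the H2-O molecule that holds H2-DM back, was at 0.67, 0.22 and 0.95 FPKM against 0.38, 1.17 and 0.45 FPKM and did not share the pattern of mutant c.

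The class II regulator Ciita stayed under the filter. It was at 0.54, 0.28 and 0.26 FPKM in control livers and at 0.26, 0.64 and 0.41 FPKM in mutant livers, so it too was highest in mutant b and at its lowest level in control c and mutant a. H2-DMb2 was at 0.24 to 0.48 against 0.19 to 0.58 FPKM, H2-Oa at 0 to 0.34 against 0.13 to 0.27 FPKM, and H2-Eb2 did not exceed 0.14 FPKM.

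**Figure D3:**
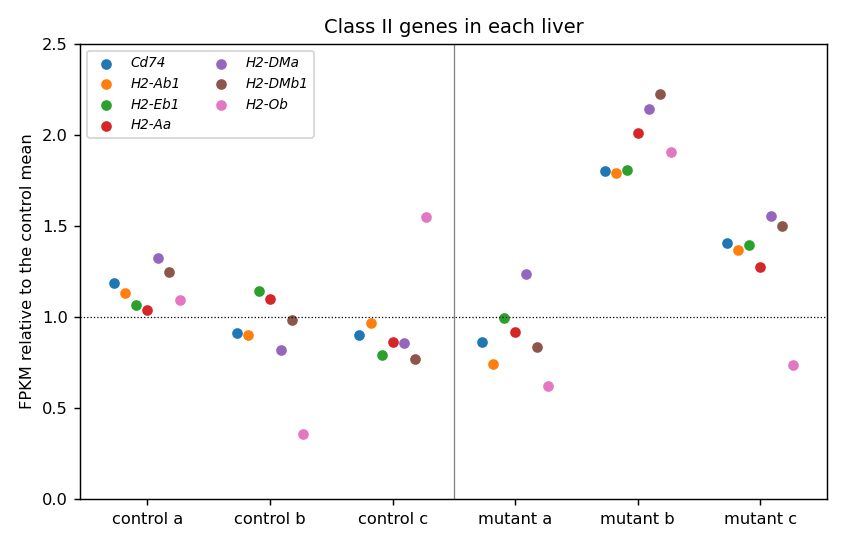
FPKM of the 7 tested class II genes in each liver, divided by the mean of the 3 control livers, which the dotted line at 1 marks. All 7 genes are highest in mutant b. Except for H2-Ob, mutant c lies above every control, and mutant a does not for any of the 7.

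The class II difference depended on single livers. Without mutant a, 6 class II genes (Cd74, H2-Aa, H2-Ab1, H2-Eb1, H2-DMa and H2-DMb1) and H2-M3 had an unadjusted p under 0.05 in the higher direction and H2-Bl in the lower, with adjusted p from limma of at least 0.376 for all 8, against 9.04% and 3.32% of all genes in that fit. Without mutant b, 0 members did (7.97% and 2.12% of all genes), and the same count of 0 was found without mutant c and without control c. The median class II log2 fold change was 0.68 without mutant a and 0.15 without mutant b.

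Macrophage markers also varied among the mutant livers. The 5 Kupffer cell markers (Clec4f, Vsig4, Timd4, Cd5l and Marco) had summed levels of 121, 189.6 and 109.8 FPKM in controls a, b and c, against 205, 346 and 172 FPKM in mutants, again highest in mutant b, and 5 of 5 had a log2 fold change above 0, as did 70.3% of all tested genes. Of these, 1 of 5, Marco, did not overlap between the genotypes, against 18.7% of all tested genes with each mutant above every control. Marco was at 21.9, 46.2 and 11.3 FPKM against 74.0, 82.2 and 57.7 FPKM (log2 fold change 1.64, SE 0.46, adjusted p = 0.255 from limma). Clec4f, the highest of the list, was at 46.6 to 56.4 FPKM in controls and at 51.9, 117 and 53.3 FPKM in mutants a, b and c. The 4 pan-macrophage markers, of which Cd68 was the highest, summed to 43.1, 66.9 and 28.5 FPKM against 62.6, 109.8 and 62.8 FPKM. The 6 markers of monocyte-derived macrophages summed to 16.8 to 50.6 FPKM in control and 38.5 to 67.1 FPKM in mutant livers, and 3 of them, Ccr2, Ly6c2 and Itgam, were higher in each mutant liver than in any control, against 18.7% of all tested genes. The order was not that of class II throughout, because mutant a was higher than mutant c in the Kupffer cell list while its class II level was the lower. Among the controls, b was the highest in these macrophage lists. Its summed class II chains with Cd74, at 79.1 FPKM, were below those of control a, at 89.7 FPKM.

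Markers of B cells and dendritic cells, which also carry class II, were low. The 5 B cell markers, with Cd79b the highest, summed to 1.25 to 2.31 FPKM in control and 1.76 to 3.57 FPKM in mutant livers, and the 7 dendritic cell markers, with Zbtb46 the highest, to 3.10 to 4.55 against 4.40 to 5.08 FPKM. Ptprc, which all leukocytes express, was at 2.31, 4.39 and 2.21 FPKM against 4.19, 6.43 and 3.72 FPKM. No gene of these lists was at 0 in all livers. The 6 T and NK cell markers summed to 1.5 to 2.46 FPKM against 1.57 to 2.16 FPKM. Of these, Cd4, the co-receptor of the T cells that read class II, was the only gene tested. It was at 1.73, 0.84 and 1.3 FPKM against 0.37, 0.42 and 0.65 FPKM (log2 fold change -1.24, SE 0.42, adjusted p = 0.270 from limma). Each mutant liver was below every control for Cd4, as for 4.34% of all tested genes. The other T and NK cell markers, all under the filter, had higher mean levels in mutant livers. Cd3e, for one, had a mean of 0.26 FPKM in control and 0.49 FPKM in mutant livers. The 5 endothelial markers summed to 23.7 to 36.5 against 34.9 to 63.2 FPKM, highest in mutant a. The part of any of these cells in the class II result was not tested.

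**Figure D4:**
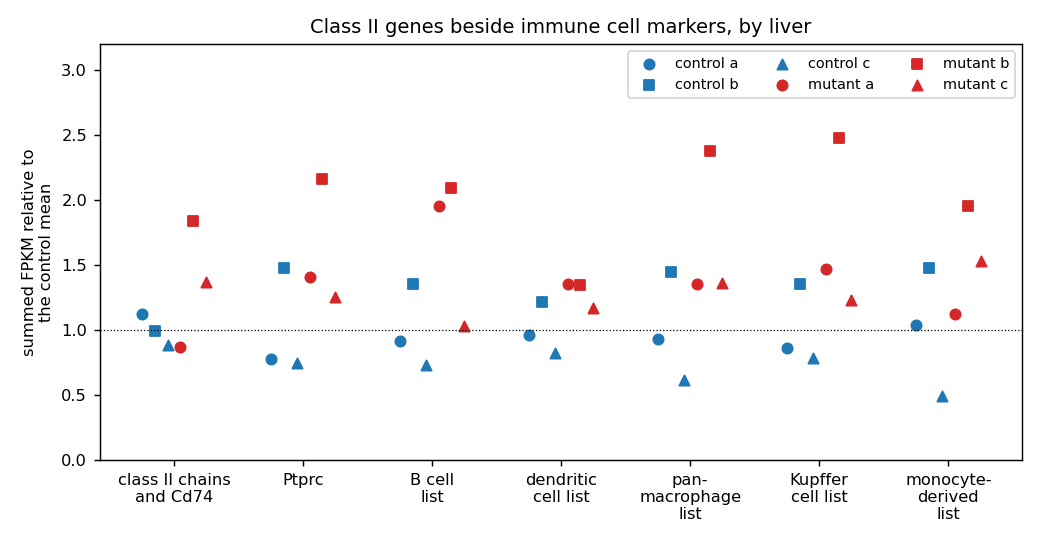
Summed FPKM of the class II chains with Cd74 and of immune cell marker lists in each liver, divided by the mean of the 3 control livers, with control livers in blue and mutant livers in red. Mutant b is the highest liver for class II, Ptprc and the B cell, pan-macrophage, Kupffer and monocyte-derived lists, while mutant a is the lowest for class II and lies above at least 1 control in every other list.

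Among other genes of the pathway, 4 further chaperones of class I folding and loading were examined, and the fold changes of Pdia3 and Calr were larger than that of any member. Calr, Canx, Pdia3 and Tapbpl had higher levels in each mutant liver than in any control liver, 4 of 4 against 18.7% of all tested genes. At an unadjusted p under 0.05, 4 of 4 were higher, against 13.2% of all tested genes. The adjusted threshold was passed by 0 of 4 (adjusted p = 0.255 to 0.284 from limma). Tapbp, described above, overlapped between the genotypes. Pdia3 (ERp57), a disulfide isomerase of the loading complex, was at 162, 328 and 172 FPKM in control and 447, 505 and 388 FPKM in mutant livers (log2 fold change 1.09, SE 0.28). Calr, calreticulin, was at 428, 898 and 484 FPKM against 1123, 1375 and 1070.2 FPKM (1.05, SE 0.28, adjusted p = 0.255 from limma for both). These chaperones serve most glycoproteins of the endoplasmic reticulum and not class I alone. Without control b, the control nearest to the mutants for both genes, the adjusted p from limma was 0.0409 for Pdia3 and 0.0495 for Calr. In that fit, 39 of 13943 tested genes passed the adjusted threshold, against 0 with all livers. The share of all genes higher at an unadjusted p under 0.05 was 20.7% there, against 13.2% with all livers. Without any 1 of the other 5 livers, the adjusted p was 0.376 to 0.516 for Pdia3 and Calr. Tapbpl had a log2 fold change of 0.49, and 0.30 with median-ratio scaling. Canx had 0.55, and 0.36 with that scaling, which gave 0.90 for Pdia3 and 0.87 for Calr.

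The 5 genes of peptide supply, subunits of the immunoproteasome and its activator, overlapped except for Psme1, 1 of 5 against 18.7% of all tested genes. Psme1 was at 80.7 to 95.6 against 96.7 to 102 FPKM (log2 fold change 0.15, SE 0.12, and -0.03 with median-ratio scaling). At an unadjusted p under 0.05, 0 of 5 were higher and 0 lower, against 13.2% and 3.02% of all tested genes. Psmb10 was at 22.2 to 30.95 against 29.8 to 36.3 FPKM (0.38, SE 0.17, and 0.20 with median-ratio scaling). Of 6 class I-like chains outside the H2 symbols, Fcgrt, the Fc receptor that recycles IgG and albumin, was at 79.3, 79.8 and 92.9 FPKM against 72.3, 53.5 and 64.2 FPKM (-0.41, SE 0.15, and -0.60 with median-ratio scaling). Hfe, which takes part in iron sensing, was at 17.5, 16.2 and 13.0 FPKM against 23.7, 19.6 and 18.4 FPKM (0.40, SE 0.17, and 0.22 with median-ratio scaling). Both bind B2m and did not overlap between the genotypes, in opposite directions, with adjusted p from limma of 0.284 and 0.305. Procr (0.51 to 1.75 against 1.82 to 4.37 FPKM) and Azgp1 (901 to 1059 against 800 to 893 FPKM) did not overlap either. Of the 6 chains, 2 were thus higher in each mutant liver than in any control and 2 lower, against 18.7% and 4.34% of all tested genes.

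Of 8 genes that process or sort class II, Lgmn, an endosomal protease, was at 51.2, 73.8 and 31.9 FPKM in control and 79.6, 135 and 97.8 FPKM in mutant livers (log2 fold change 1.04, SE 0.33, adjusted p = 0.257 from limma). Marchf1, a ubiquitin ligase that removes class II from the surface, was at 0.73, 1.01 and 0.60 FPKM against 1.18, 2.31 and 1.54 FPKM (0.99, SE 0.36). These 2 of 8 were higher in each mutant liver than in any control, near the 18.7% of all tested genes, and both were highest in mutant b.

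Of the 7 factors that bind class II promoters, 5 had a log2 fold change above 0, close to the share of all tested genes. Creb1 was at 2.63 to 3.09 against 3.54 to 3.99 FPKM (log2 fold change 0.40, SE 0.17, and 0.22 with median-ratio scaling). Rfx5 was at 3.17 to 4.23 against 2.80 to 3.10 FPKM (-0.33, SE 0.19, and -0.51 with that scaling), and the list's median was 0.08. Of 13 tested genes of the interferon-gamma response, which induces both classes, 1 was higher at an unadjusted p under 0.05 and 0 were lower. The shares over all tested genes were 13.2% and 3.02%. The higher gene was the chemokine Cxcl9, at 3.2, 3.53 and 2.41 FPKM against 4.27, 6.44 and 6.83 FPKM (0.91, SE 0.25, adjusted p = 0.255 from limma). Irf1, a transcription factor of the same response, lay in the other direction at 25.97, 20.8 and 21.9 FPKM against 16.3, 18.8 and 20.6 FPKM (-0.30, SE 0.15, and -0.49 with median-ratio scaling). Among 5 tested genes of co-stimulation, Cd274 (PD-L1) was at 0.77 to 1.18 against 1.23 to 1.68 FPKM (0.52, SE 0.30, and 0.20 with quantile normalization) and Cd86 at 1.06 to 2.56 against 1.58 to 3.01 FPKM (0.42, SE 0.42, and 0.12 with quantile normalization), and 0 of 5 had an unadjusted p under 0.05.

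The 4 genes with an H2 symbol outside the classes did not differ beyond their spread. H2-Ke6, now called Hsd17b8, a dehydrogenase of the same chromosomal region, was at 70.1 to 106 FPKM in control and 87.3 to 109 FPKM in mutant livers, and 54.3% of its stretches of read length are shared with the overlapping gene model Gm20427. H2-K2, a pseudogene, was at 4.04 to 5.36 against 2.80 to 4.79 FPKM (log2 fold change -0.29, SE 0.25). H2-Pa and H2-Pb were listed at 0.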

How the data were processed

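Livers of 3 Chrna2fl/fl and 3 Chrna2fl/fl;AlbCre mice were analysed from the gene table that the authors deposited. They made directional poly(A) libraries, sequenced paired reads, aligned to GRCm38 with STAR 2.7.8a and computed FPKM with RSEM 1.3.3. The submitters' processing notes also name cutadapt 2.3, FastQC 0.11.8 and MultiQC 1.7. FPKM deposited by the authors carries 2 decimals and is not a count, so no count test was run. RSEM shares reads of near-identical genes between them.

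Depth was estimated from the steps between low FPKM values (87.1% to 90.9% whole within 0.15 fragments), without an interval for single values. Genotypes were compared with limma 3.58.1 (R 4.3.3, lmFit, then eBayes with its trend option). The values were log2(FPKM + 0.1), and genes entered where the mean reached 0.5 FPKM. P-values were adjusted by Benjamini-Hochberg over all 13943 genes, and the code was tested on simulated data. Gene positions came from GENCODE M21 and promoter starts from RefSeq, and March1 and March8 were matched by identifier to Marchf1 and Marchf8.

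Every member in that test is named, lower ones above 0.1 FPKM in some liver too, and of each list on antigen presentation the 2 tested genes with the smallest p. Canx, Tapbpl, Cd4, Cd3e, Procr and Azgp1, the levels of Clec4f and Alb, and the fold change of Marco were added after their values were seen. The order of the mutant livers in class II was likewise read from the values. Members and lists were chosen with earlier results of these data known. Alternatives were other pseudocounts, filters and scalings, no trend, array weights, each liver left out, and the replicate letter as a block.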

Additional observations from a re-analysis of the deposited data

How the results depend on the processing

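Of the 30 tested members, 17 kept their direction under each of the 17 alternatives in which they were tested and 13 reversed under at least 1, and 0 passed an adjusted p under 0.05 from limma in any (smallest 0.0806). Median-ratio scaling and quantile normalization moved the median of all tested genes by -0.18 and -0.19. With median-ratio scaling, 1 member was higher and 4 were lower (B2m, H2-Bl, H2-Q10 and H2-T23) at an unadjusted p under 0.05, against 6.31% and 7.39% of all genes in that fit, and with quantile normalization 1 and 1 (6.85% and 6.58%). A pseudocount of 1 gave 1 lower (3.11%), array weights 3 higher and 2 lower (21.5% and 4.70%), and a mean of at least 5 FPKM 1 higher (14.9%), since H2-M3 is then not tested. Leaving out 1 liver gave 0 to 7 higher (7.51% to 20.7% of all genes) and 0 to 1 lower (2.02% to 3.70%). The cause of the other changes was not tested.

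Whether the replicate letters pair the livers was not stated. Same-letter deviations correlated at -0.02, 0.06 and 0.02 over genes, and not every liver correlated best with its own letter. With 3 livers per genotype, such correlations cannot decide whether the letters pair the livers. With the letter as a block, 1 member was higher and 1 was lower (12.2% and 2.93% of all genes), H2-DMa no longer passing (unadjusted p = 0.0639 from limma), and 0 passed the adjusted threshold.

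The median of nonclassical class I became 0.012 and 0.022 with a mean of at least 1 and 5 FPKM, was -0.20 with median-ratio scaling and -0.25 with array weights, and ranged from -0.13 to 0.23 without 1 liver. That of the classical and assembly genes together was -0.064, moved to -0.25 with median-ratio scaling and ranged from -0.073 to 0.018 without 1 liver, and that of class II from 0.15 to 0.68. With median-ratio scaling, log2 fold changes reversed to -0.030 for Tapbp, -0.11 for H2-Q4, -0.036 for H2-Ob, -0.13 for H2-Q6, -0.18 for H2-D1, -0.058 for H2-Ke6 and -0.14 for H2-T10. With quantile normalization they reversed to -0.061 for H2-Q4, -0.11 for H2-Q6, -0.069 for H2-D1, -0.24 for H2-T10 and 0.012 for H2-Q2. With array weights they reversed to 0.040 for Erap1, -0.11 for H2-Q4, -0.25 for H2-Q6, -0.041 for H2-D1 and -0.049 for H2-T10. Leaving out 1 liver, the ranges that crossed 0 were -0.27 to 4.6e-05 for Erap1, -0.075 to 0.22 for H2-Q4, -0.37 to 0.48 for H2-Ob, -0.41 to 0.15 for H2-Q5, -0.18 to 0.27 for H2-Q7, -0.13 to 0.32 for H2-Q6, -0.064 to 0.044 for H2-D1, -0.061 to 0.23 for H2-Ke6, -0.35 to 0.046 for Nlrc5, -0.061 to 0.098 for H2-T10, -0.65 to 0.31 for H2-Q1 and -0.52 to 0.55 for H2-Q2. Depth limits the lowest genes, such as H2-Q2.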
